A study of Mus musculus with 2 samples.

Results

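Eph receptors and ephrins were examined in the lens of newborn mice, in a comparison of mice with Foxp1 deleted in the lens and wild-type litter mates. The set comprised 10 named genes, 6 Eph receptors (Epha2, Epha3, Epha4, Epha7, Ephb2 and Ephb4) and 4 ephrins (Efna1, Efna5, Efnb1 and Efnb2), out of 20655 genes that could be named on the arrays. All 14 gene probes that carry a RefSeq transcript of these genes were taken, by a rule that uses no measured value. The series holds 2 samples of total RNA, 1 Agilent 1-colour array of Foxp1 knockout lens and 1 of wild-type lens, both at postnatal day 0 on a mixed C57BL/6 background. A floxed Foxp1 allele and the driver Pax6-L-Cre are listed for knockout and wild-type samples alike, so whether the animals labelled wild-type carried either is not settled by the labels. Pooling of animals is not stated. The arrays shared 1 slide, on which each genotype had its own position, and effects of position and of genotype cannot be told apart.

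Eph receptors are receptor tyrosine kinases that are activated by ephrins on the surface of a touching cell. Ephrin-A ligands are held in the membrane by a lipid anchor, ephrin-B ligands cross it, and signals pass both forward into the receptor cell and in reverse into the ephrin cell. The pathway steers adhesion, repulsion and the sorting of cells at boundaries. In the lens, EphA2 is known for the regular packing of fibre cells, EPHA2 variants cause human cataract, and loss of the ephrin-A5 ligand in mice disturbs lens cells.

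The members were spread on both sides of equality. Of the 10 members, 5 read higher and 5 lower on the knockout array, with a median difference of 0.00 on the log2 scale, against a median of 0.01 over the 14254 genes measured on both arrays. The difference is the log2 processed signal less the 75th percentile of its array, knockout minus wild-type, averaged over the probes of a gene that were well above background on both arrays. With 1 array per genotype there is no replicate check, no p-value can be given, and a difference of at least 2-fold was used as a fixed rule of size. No member was at least 2-fold higher (0 of 10), against 1.02% of all measured genes. A single member, Epha7, was at least 2-fold lower (1 of 10), against 5.86% of all measured genes and 30.2% of the genes in the dimmest of 10 signal classes, to which Epha7 belongs. Of the members less than 2-fold apart, Epha2, Efna5 and Efnb1 read higher in the bright range, Ephb4 and Efna1 read lower, and Ephb2 was close to equal.

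Both arrays had 59305 gene spots, of which 56.9% were well above background on the knockout array and 67.5% on the wild-type array. Processed signals had their 75th percentile at 279.9 in the knockout and at 283 in the wild-type, and no spot was saturated (0 on each). Foxp1, the targeted gene, read 3.17-fold lower on the knockout array over 3 probes, which lay between -1.84 and -1.33. The labels do not give the deleted exons, so these probes may or may not report on them. Lens identity was plain on both arrays, with all 17 lens markers measured, none of them 2-fold apart (0 genes) and a median difference of -0.02. Dim signals read lower on the knockout array across the whole table. The measured genes were divided into 10 equal classes by signal. The dimmest class had a median difference of -0.61 and a 10th to 90th percentile range of -1.56 to 0.15, whereas class 9 had 0.09 and a range of -0.13 to 0.34. An added spike-in RNA that read 37.2 in the knockout hybridisation and 81.4 in the wild-type one differed by -1.12. A dimmer spike-in RNA read 54.1 in the wild-type and 6.10 in the knockout, where it was not well above background, a difference of -3.13. The dimmest spike-in RNA read 19.2 in the wild-type and 3.88 in the knockout, a difference of -2.30. Spike-in RNAs at 284 or more in the wild-type differed by -0.19 to 0.01. Spot noise was taken from 281 measured probes with 5 or more prints and had an SD of 0.29 in the dimmest of 5 signal classes and 0.08 in the brightest. This SD, printed after each difference below, covers spots only and not animals, dissection or labelling.

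Upstream sequences of the members are shown because the deleted gene encodes a forkhead factor, a DNA-binding protein. They are the 250 bases before the RefSeq start of the lens receptor Epha2, of its class A ligand Efna5, and of Ephb4, which read lower with both of its probes, on GRCm38.p6, with CG dinucleotides in capitals:
Epha2, chr4:141300971-141301220, plus strand: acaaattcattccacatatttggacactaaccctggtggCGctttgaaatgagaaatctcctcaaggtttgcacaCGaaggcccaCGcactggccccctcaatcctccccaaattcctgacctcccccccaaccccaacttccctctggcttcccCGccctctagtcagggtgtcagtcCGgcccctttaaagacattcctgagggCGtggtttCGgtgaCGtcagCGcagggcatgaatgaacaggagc
Efna5, chr17:62881318-62881567, minus strand: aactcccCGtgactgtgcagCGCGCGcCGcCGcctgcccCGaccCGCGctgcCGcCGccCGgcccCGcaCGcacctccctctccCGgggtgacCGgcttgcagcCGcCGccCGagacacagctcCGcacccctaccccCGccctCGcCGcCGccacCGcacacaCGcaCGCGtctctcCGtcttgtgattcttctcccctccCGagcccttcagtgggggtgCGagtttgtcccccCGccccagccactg
Ephb4, chr5:137349859-137350108, plus strand: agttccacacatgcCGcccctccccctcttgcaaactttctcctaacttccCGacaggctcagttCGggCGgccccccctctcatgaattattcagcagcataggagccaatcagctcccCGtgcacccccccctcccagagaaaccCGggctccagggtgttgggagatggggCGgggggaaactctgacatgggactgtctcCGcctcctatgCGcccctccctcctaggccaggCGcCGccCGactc
The windows of Epha2, Efna5 and Ephb4 held 9, 32 and 12 CG dinucleotides, and the median over 32851 promoter windows was 6. A forkhead core, TGTTTAC, searched on both strands, was in 0 of 12 windows of the 10 members and in 3.17% of all windows. The shorter core TGTTT, which is contained in the longer one, was in 0 of 12 member windows and in 46.4% of all windows. Of the 13248 windows with at least 9 CG dinucleotides, the lowest number among the members, 1.9% held TGTTTAC and 27.1% held TGTTT. In the 24 windows found for all Eph and ephrin genes, TGTTTAC was in 0 and TGTTT in 2. The absence holds for these letters in the 12 member windows only. Other sequences that forkhead factors may bind were not searched for, and the arrays carry no measure of binding.

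Among the EphA receptors, Epha2 and Epha4 read higher, Epha7 lower and Epha3 about equal. The single Epha2 probe read 4390.4 in knockout lens and 3319 in wild-type lens, a difference of 0.42 ± 0.08 (spot SD), or 1.34-fold. This difference exceeded the 90th percentile of its signal class, 0.34. Epha4, a receptor that binds ligands of both ephrin classes, read 59.5 on the knockout array and 32.9 on the wild-type array. Its difference of 0.87 ± 0.29 was the largest upward difference among the members, and it went against the downward drift of the dim genes around it, whose 90th percentile was 0.35. Epha4 crossed 2-fold after loess (1.31), whereas the difference was 0.10 after normexp background correction. Epha3, at 38.8 on the knockout array and 37.8 on the wild-type array, differed by 0.05 ± 0.29, less than the spot SD.

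Epha7 was read by 3 probes, all of them dim. The one probe above background on both arrays had 16.6 on the knockout array and 45.2 on the wild-type array, a difference of -1.43 ± 0.29, or 2.69-fold lower. A further probe read 3.60 on the knockout array, where it was not well above background, and 44.0 on the wild-type array, and was at least 3.60-fold lower. That bound sets the wild-type signal against the lowest knockout signal called well above background, 12.1. It is a bound on array signal only. A spike-in RNA that read 54.1 on the wild-type array likewise fell to 6.10 on the knockout array, where it was not well above background. The remaining probe read 4.31 on the knockout array and 12.3 on the wild-type array and was above background on neither. The further probe was above background only on the array where it read higher, so its direction adds no support. The -1.43 of the probe measured on both arrays lies inside the 10th to 90th percentile range of equally dim genes. The 2-fold call was lost after loess (-0.79) and under quantile normalization (-0.17).

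**Figure D1:**
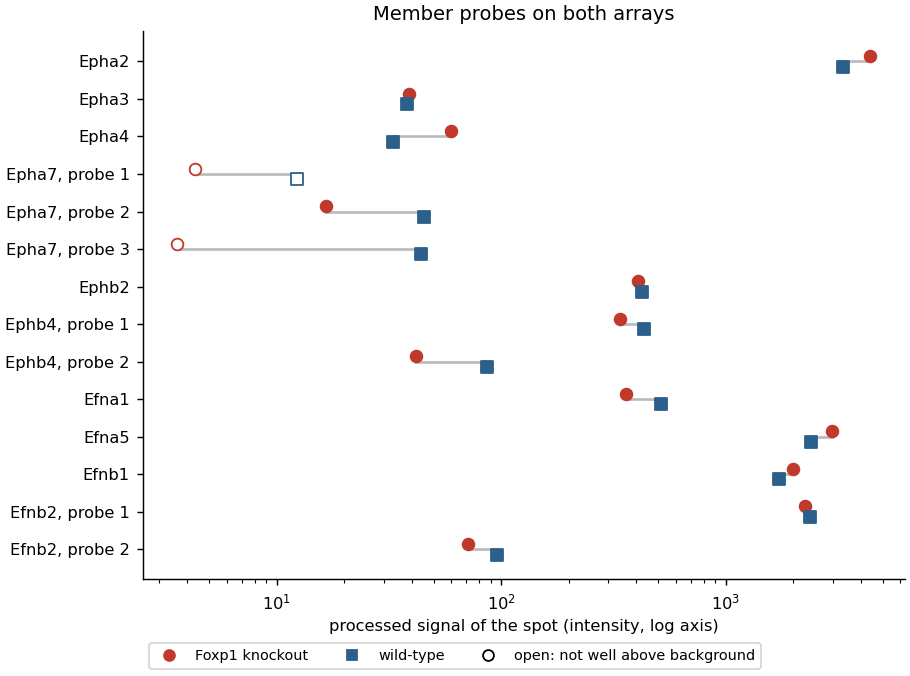
Processed signal of each of the 14 member probes (intensity, log axis) on the Foxp1 knockout array (circles) and the wild-type array (squares), with open symbols for spots not well above background. Epha2, Efna5 and Efnb1 lie to the right for the knockout, Ephb4 and Efna1 to the left, and 2 of the 3 Epha7 probes are not well above background on the knockout array. Positions of different probes along the axis are not comparable levels.

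The EphB receptors of the set were close to equal or lower. Ephb2, a receptor of B ephrins in neural and epithelial boundaries, read 407 on the knockout array and 423 on the wild-type array, a difference of -0.04 ± 0.12. Ephb4, the venous partner of ephrin-B2 in vessels, was read by 2 probes that were both lower in the knockout. The brighter had 339 on the knockout array and 433 on the wild-type array, a difference of -0.34. The dimmer had 41.8 on the knockout array and 86.6 on the wild-type array, a difference of -1.04. The gene difference was -0.69 ± 0.15, or 1.61-fold lower, below the 10th percentile of its signal class, -0.56. That class was set by the mean over both probes, and neither probe alone had that signal. The -1.04 of the dimmer probe lay inside the range of the dim class 2, -1.30 to 0.35. The 2 probes disagreed by more than spot noise, and the brighter alone kept the direction.

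Ephrins of class A went opposite ways. Efna1, a ligand of EphA2, read 360.0 on the knockout array and 512 on the wild-type array, a difference of -0.50 ± 0.12, or 1.41-fold lower. This lay below the 10th percentile of genes of like signal, -0.29. Efna5 read 2967 on the knockout array and 2390 on the wild-type array, a difference of 0.33 ± 0.08, or 1.25-fold higher, just inside the 90th percentile of 0.34 for its signal class. Epha2 and Efna5 thus both read higher while Efna1 read lower, each with 1 probe.

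Ephrins of class B differed less. Efnb1, a transmembrane ligand encoded on the X chromosome, read 2002 on the knockout array and 1734 on the wild-type array, a difference of 0.22 ± 0.12. The brighter Efnb2 probe read 2258 on the knockout array and 2385 on the wild-type array, a difference of -0.07, below its spot SD. The dimmer Efnb2 probe had 71.4 on the knockout array and 96.1 on the wild-type array, a difference of -0.42. The mean over both Efnb2 probes was -0.24 ± 0.09, and both class B members lay within the 10th to 90th percentile range of genes of like signal. In all, 7 of the 10 members differed by more than 2 spot SDs, as did 41.9% of all measured genes. Outside the range of like-signal genes lay 4 members (Epha2 and Epha4 above it, Ephb4 and Efna1 below), where by construction 20.1% of all measured genes lie. Ephb4 and Efnb2 were classed by the mean over 2 probes of unlike signal.

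**Figure D2:**
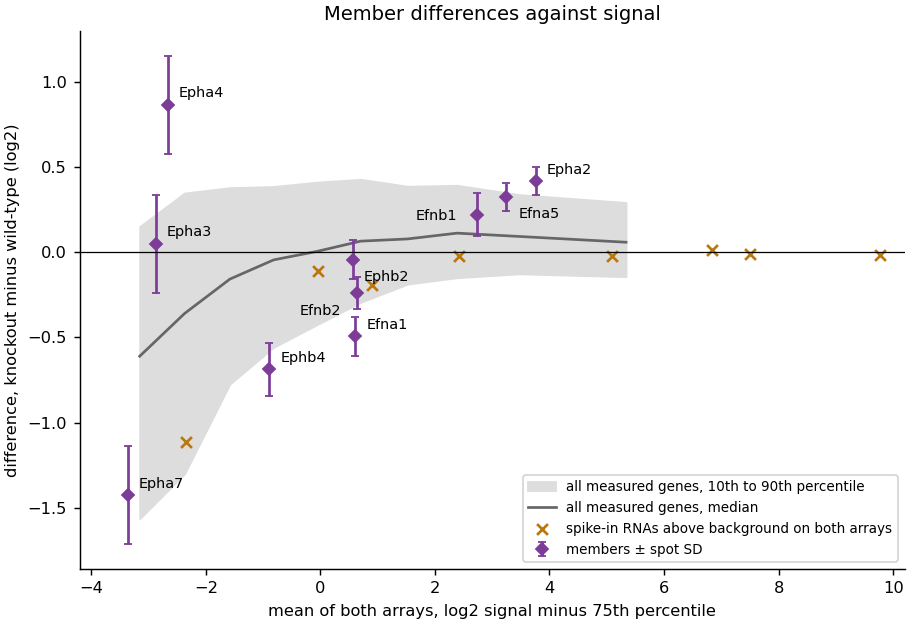
Difference of each member (log2, Foxp1 knockout minus wild-type, diamonds ± spot SD) against its mean log2 signal less the 75th percentile of the array, over the 10th to 90th percentile band and median of all 14254 measured genes in 10 signal classes. The band falls to a median of -0.61 in the dimmest class, the dimmest spike-in RNA shown (crosses) lies at -1.12, and Epha2, Epha4, Ephb4 and Efna1 lie outside the band of their class. Ephb4 and Efnb2 are placed by the mean over 2 probes of unlike signal.

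The other 12 Eph and ephrin genes on the array were read in the same way. Of these, 10 were measured on both arrays and Epha6 and Epha10 were above background on neither. Of the 10 measured, 5 read higher and 5 lower, and the median was 0.04. At least 2-fold higher were 0 and at least 2-fold lower 2, against 1.02% and 5.86% of all measured genes. Among these 10, Epha8 and Ephb1 read highest and Ephb6 and Epha1 lowest. Epha8 read 1079 on the knockout array and 693 on the wild-type array, a difference of 0.65 ± 0.12, or 1.57-fold. Ephb1 read 267 on the knockout array and 193 on the wild-type array, a difference of 0.48 ± 0.17. The brighter probe of Epha5 read 4822 on the knockout array and 4246 on the wild-type array, a difference of 0.20, and its dimmer probe differed by 0.61. Ephb3, at 11263 on the knockout array and 10474 on the wild-type array, differed by 0.12 ± 0.08.

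The 2-fold lower receptors among these were dim or read by discordant probes. Epha1 read 19.3 on the knockout array and 40.2 on the wild-type array, a difference of -1.04 ± 0.29 inside the range of equally dim genes, and quantile normalization turned it to 0.23. Ephb6, a receptor without kinase activity, had a mean of -1.14 made of -0.11 for its brighter probe and -2.17 for its dimmer one. Efna3 read 192 on the knockout array and 319 on the wild-type array with the probe above background on both, a difference of -0.72 ± 0.17. Efna4 differed by -0.30 ± 0.17, Efna2 by -0.03 ± 0.17 and Efnb3 by 0.19 ± 0.12. Over all 20 measured genes of the family, 10 read higher and 10 lower with a median of 0.01. The 12 measured receptors had a median of 0.08 and the 8 ephrins one of -0.14, with 5 of the 8 ephrins below 0.

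**Figure D3:**
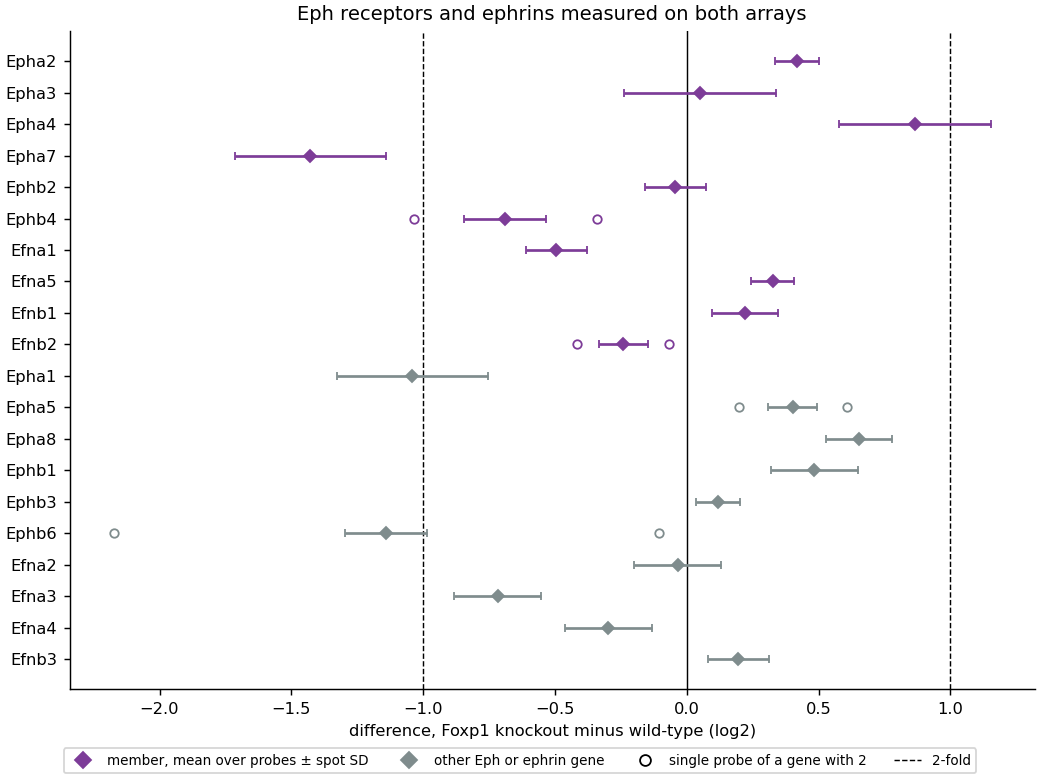
Difference (log2, Foxp1 knockout minus wild-type) of the 20 Eph and ephrin genes measured on both arrays, as the mean over measured probes ± spot SD, with open circles for single probes of genes that have 2 and dashed lines at 2-fold. Epha7, Epha1 and Ephb6 lie beyond the lower line, no gene lies beyond the upper one, and the probes of Ephb6 lie at -0.11 and -2.17.

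Genes that act with the receptors showed few large differences. Of 35 genes of forward signalling below Eph receptors, 34 were measured on both arrays, 19 read higher and 15 lower, and the median was 0.09. At least 2-fold higher were 0 and at least 2-fold lower 1, against 1.02% and 5.86% of all measured genes. The lower one was Src, the tyrosine kinase, whose single dim probe read 17.0 on the knockout array and 70.4 on the wild-type array, a difference of -2.04 ± 0.29. Src lay in the dimmest signal class, where 30.2% of genes were at least 2-fold lower, and below the 10th percentile of that class, -1.56. Spike-in RNAs that read 54.1 and 81.4 on the wild-type array differed by -3.13 and -1.12. The exchange factor Vav2 differed by -0.63 ± 0.17, the exchange factor Kalrn by -0.59 ± 0.13 over 4 probes between -1.37 and 0.09, and the adaptor Shb by -0.56 ± 0.10. Sla was well above background on the wild-type array only.

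Of 16 genes of reverse signalling and ephrin cleavage, 13 were measured on both arrays, 8 read higher and 5 lower, and the median was 0.09. None passed 2-fold (0 in either direction), against 1.02% higher and 5.86% lower of all measured genes. Adam10, the metalloprotease that cuts ephrins from the cell surface, read 11493 on the knockout array and 6897 on the wild-type array, a difference of 0.75 ± 0.08, or 1.68-fold. It lay well above the 90th percentile of the brightest signal class, 0.29. The scaffold Grip2 and the transcription factor Stat3 had means of -0.61 and -0.51 over probes that ranged from -1.07 to -0.14 and from -1.25 to 0.23. Afdn, the junction protein afadin, differed by 0.33 ± 0.29. Pard6b was not well above background on either array, and Cnksr1 was so on the wild-type array only.

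Junction partners of the pathway in lens read mostly higher. Of 8 genes, all measured, 7 were above 0 and 1 below, none passed 2-fold (0 genes), and the median was 0.25, against 0.01 over all measured genes and 0.06 to 0.11 in the 3 brightest signal classes. Ctnna1, alpha-catenin, read 26100 on the knockout array and 16521 on the wild-type array, a difference of 0.67 ± 0.08. Cttn, the actin regulator cortactin, differed by 0.54 ± 0.07 with both probes between 0.51 and 0.57. N-cadherin, Cdh2, read 27191 on the knockout array and 22659 on the wild-type array with its brighter probe, and its gene difference was 0.27 ± 0.06. Ctnnd1, p120 catenin, differed by 0.27 ± 0.08.

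Several members are expressed in cells other than lens cells, and markers of those cells were read beside them. In whole-lens RNA fewer cells of a type and less RNA per cell cannot be told apart. Eph receptors also act in retinal neurons, whose 14 markers were all measured. Of these, 13 read higher in the knockout and 2 were at least 2-fold higher, against 1.02% of all measured genes. Their median was 0.61, with a summed signal of 42.8 times the 75th percentile on the knockout array and 28.4 times on the wild-type array. Beside Ephb4 and Efnb2, all 10 markers of endothelium were measured, 8 read lower and 2 higher between -1.12 and 0.86, with a median of -0.13. Of the lower ones, Emcn lay in class 1, Tie1 in class 2 and Pecam1 and Esam in class 3, where all genes had medians of -0.61, -0.36 and -0.16. Their summed signal was 36.1 times the 75th percentile on the knockout array and 39.2 on the wild-type array. Most of it came from Egfl7, at 5789 on the knockout array and 6592 on the wild-type array. Of 10 markers of pericytes and mesenchyme 5 were measured, with a median of -0.02. At least 2-fold lower was 1, Prrx1 in the dimmest class, against 5.86% of all measured genes and 30.2% of that class. Their sums over the measured probes were 3.95 in the knockout and 4.15 in the wild-type. Over all probes of the list, with those not measured on both arrays, the sums were 4.79 in the knockout and 4.60 in the wild-type. The part of these cell types in the receptor and ephrin differences was not tested.

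Markers of blood, immune, pigment and surface cells had medians below 0. All measured genes also had medians below 0 in the dim classes, -0.61 in the dimmest and -0.16 in class 3. Krt5 and Krt14 lay in the dimmest class and Krt15 and Aif1 in class 3, whereas Hba-a1 and Hba-a2 lay in the brightest. The erythroid markers were lower in 5 of 5 measured genes with a median of -0.30 and, over the measured probes, sums of 164.2 in the knockout and 197.1 in the wild-type. Macrophage markers, 4 of 7 measured, had a median of -0.27 and sums of 5.01 in the knockout and 5.30 in the wild-type. Pigment epithelium markers were lower in 5 of 5 measured genes with a median of -0.37, and the defining marker Rpe65 was not well above background. Tyrp1, Dct and Pmel, at -0.84, -0.37 and -0.40, lay below the 10th percentiles of their signal classes, -0.42, -0.29 and -0.19. Tyr and Mitf lay inside the ranges of their classes. Their sums over the measured probes were 18.9 in the knockout and 20.8 in the wild-type. Surface epithelium markers, 3 of 4 measured, had a median of -0.31, with Krt12 not well above background. Their sums over the measured probes were 0.44 in the knockout and 0.57 in the wild-type. Lens markers summed to 16142 on the knockout array and 16173 on the wild-type array.

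**Figure D4:**
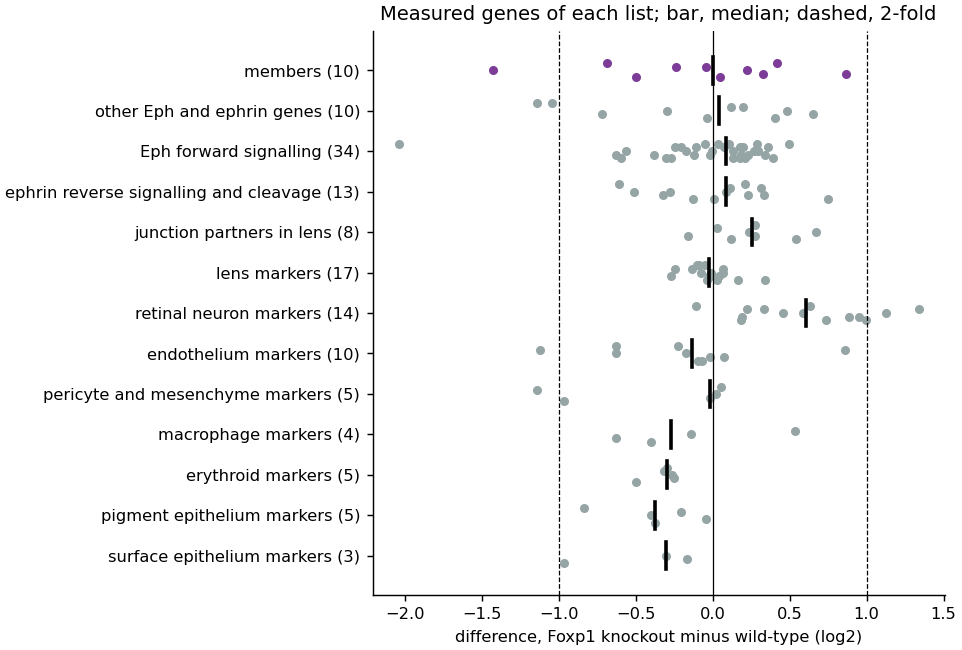
Difference (log2, Foxp1 knockout minus wild-type) of every gene measured on both arrays in each list, with the number measured in brackets, a bar at the median and dashed lines at 2-fold. The members spread evenly about 0, the 14 retinal neuron markers have a median of 0.61 and the 8 junction partners one of 0.25.

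Because some scalings shift all genes together, directions were also read relative to the median of all measured genes. Scaling by the array median raised every gene by 1.08, and by sign alone 9 of 10 members were then above 0. Relative to the median of all genes, Epha2, Efna5 and Efnb1 were above it and Ephb4, Efna1 and Efnb2 below it in all 11 settings. Scaling by the array median or by the percentile over measured probes leaves these relative values as they were by construction, and the choice among the probes of a gene cannot change the difference of the 7 members with 1 probe. The settings that moved the members with 1 probe by unequal amounts were quantile normalization, loess and normexp. Epha4 and Epha3 were above it and Epha7 below it in the 10 settings in which they were measured. Ephb2 was above it in 1 of 11. The relative values ranged from 0.15 to 0.58 for Epha2, from 0.10 to 0.49 for Efna5, from -0.70 to -0.37 for Ephb4 and from -0.62 to -0.28 for Efna1. Those of the dim members were wider, from 0.088 to 1.79 for Epha4 and from -2.02 to -0.23 for Epha7. Over all genes the split of 146 at least 2-fold higher and 835 lower became 8724 and 101 with array medians, 776 and 232 with quantile normalization and 252 and 393 with loess.

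**Figure D5:**
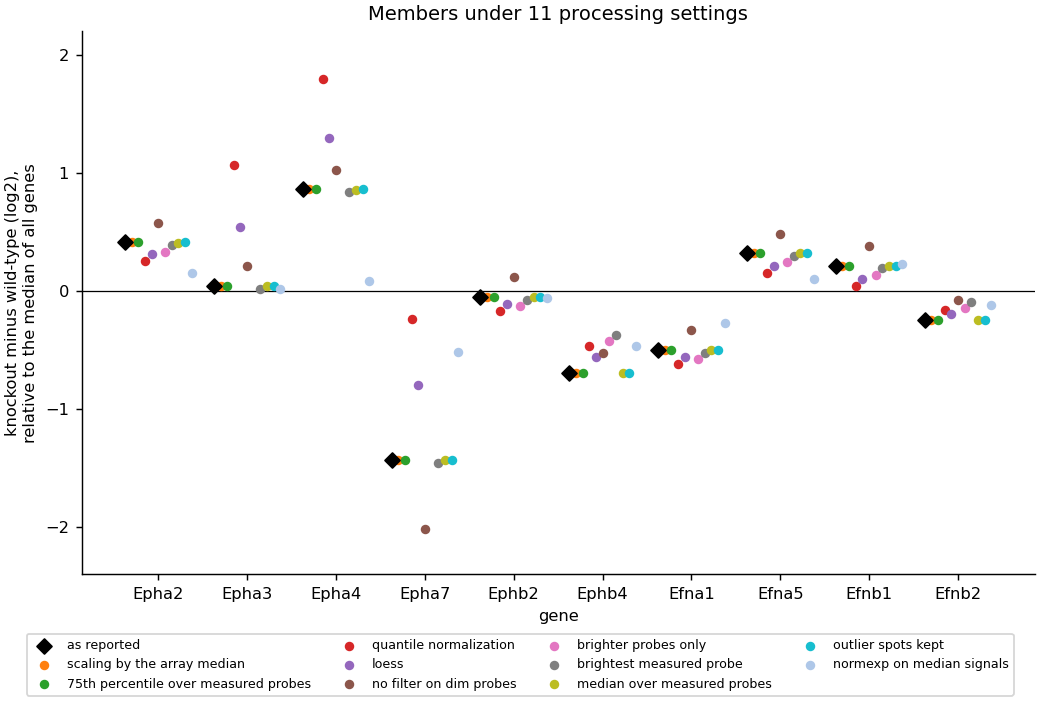
Difference of each member (log2, Foxp1 knockout minus wild-type) less the median of all genes, as reported (diamonds) and under 10 alternative settings (points). Epha2, Efna5 and Efnb1 stay above 0 and Ephb4, Efna1 and Efnb2 below 0, while the values of the dim genes Epha3, Epha4 and Epha7 spread most.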

How the data were processed

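Total RNA of newborn lens, labelled with Cy3, was read on 2 Agilent arrays, 1 per genotype. The deposited values are spot intensities on a linear scale. They were made with Agilent Feature Extraction 10.7.3.1 at 3 microns on a layout annotated to mm9, per the file headers, with background subtracted and no scaling between arrays recorded. The yes or no flags for outliers, saturation and signal well above background are the authors' deposited values. No depth applies to arrays, and their number limits the precision.

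Control spots and spots with an outlier flag on either array were left out. The log2 processed signal less the 75th percentile of the array was averaged over spots of a probe. A probe counted as measured if the flag for a signal well above background was set for over 50% of its spots on each array, and a gene took the mean of its measured probes. RefSeq accessions were matched without versions to a GRCm38.p6 table, which named 27225 of 55655 probes, and promoter windows come from RefSeq on that build. The arrays follow another build, so no probe coordinates are given. No test was run, since each genotype has 1 array. Steps were tested on simulated data. Alternatives covered scaling, background correction, dim probes, probe summary and outlier flags. Python 3.11.15, R 4.3.3 and limma 3.58.1 were used.

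The members and lists were chosen with earlier results of these data known. The text names all 10 members, all other Eph and ephrin genes, Foxp1, and of each pathway list the genes beyond 2-fold and up to 4 with the largest difference. No gene is named for a like pattern, because 2 arrays give 1 difference per gene. Some genes of the lists are not reported here. Marker lists cover lens, endothelium, pericytes and mesenchyme, macrophages, retinal neurons, erythroid cells, pigment epithelium and surface epithelium.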

Additional observations from a re-analysis of the deposited data

How the results depend on the processing

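The median difference of the members, 0.0032 as reported, was 1.08 with array medians (1.09 for all 22 genes of the family, 0.0074 as reported), -0.12 with the percentile over measured probes, and between -0.043 and 0.012 under the other alternatives. The first and second of these settings shift all genes alike. The count of members at least 2-fold higher, 0 as reported, was 6 with array medians, 2 with quantile normalization (Epha3 and Epha4) and 1 with loess (Epha4). The count at least 2-fold lower, 1 as reported, was 0 with array medians, quantile normalization, loess, the brighter probes only and normexp. Epha7 was at -0.79 after loess and -0.50 after normexp, and had no brighter probe. Epha1, 2-fold lower as reported, read 0.037 with array medians, where it stayed at -1.05 relative to the median of all genes, and 0.23 with quantile normalization, where it was 0.17 above that median. Of 194 values of single family genes under the alternatives, 13 had the opposite sign to the reported value, 8 of them with array medians, and 6 lay on the other side of the median of all genes. In all, 121 moved by less than the spot SD of the gene. Over all genes, higher and lower counts were 103 and 1080 with the percentile over measured probes, 293 and 4466 without a filter, 80 and 46 for brighter probes and 72 and 99 with normexp. The cause of these shifts was not tested. Normexp on median signals was chosen after seeing the data, because the mean signals named for the planned version were not available here. No paired analysis was possible because each genotype has 1 array. Signal over background limits Epha3, Epha4, Epha7 and the dimmer probes of Ephb4 and Efnb2.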

Other observations

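Efna1, Efna3 and Efna4 follow each other as protein-coding genes on chromosome 3 in the GRCm38.p6 annotation, and all read lower in the knockout, at -0.50, -0.72 and -0.30. The genes on either side, Slc50a1 and Adam15, read -0.08 and 0.27. Efna4 lay within the range of genes of like signal and 1.80 spot SDs from 0. Epha3, at 0.05, lies next to Pros1, which differed by 2.38. Epha1 overlaps Zyx in the annotation, and Zyx read 0.37. Whether their probes lie in the shared stretch was not examined, so it is uncertain whether these are separate measurements. These neighbours were looked at after the values of the family were seen, and none of these patterns was tested.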
